A study of Mus musculus with 8 samples.

Results

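The alcohol and aldehyde dehydrogenases described here are 10 genes, Adh1, Adh4, Adh5, Adh7, Aldh1a1, Aldh1a7, Aldh1b1, Aldh2, Aldh3a2 and Aldh9a1, taken as every probe set that the platform annotation pairs with exactly 1 of them. These were 14 of the 22690 probe sets on the array, with 10 of the 12393 genes it measures. Livers of female mice aged 4 weeks were profiled on 1 array each, in 4 wild-type (WT) animals and 4 animals labelled TrxR1/Gsr-null, all on the C57BL/6J background, with no treatment given in the labels. TrxR1 is the cytosolic thioredoxin reductase, made from Txnrd1, and Gsr is glutathione reductase, the enzymes that use NADPH to reduce thioredoxin and glutathione. The labels name every array as a biological replicate, and state neither which part of each gene was removed nor whether the loss was limited to hepatocytes.

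Alcohol dehydrogenases oxidize alcohols to aldehydes with NAD, and aldehyde dehydrogenases carry the aldehydes on to carboxylic acids. Together they clear ethanol and formaldehyde, make retinoic acid from retinol in a pair of steps, and remove reactive aldehydes that arise when membrane lipids are oxidized. Both families are abundant in liver. The study's title refers to Nrf2, a transcription factor that induces genes against oxidants and electrophiles.

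Aldh1a1 and Aldh1a7 are neighbours on chromosome 19 and encode closely related cytosolic enzymes, and both had higher values in every TrxR1/Gsr-null liver than in any WT liver. Their promoters are shown because the pair resembles each other close to the start. The stretches are the 120 bases before the start that RefSeq (GRCm38.p6) lists for Aldh1a7, chr19:20727557-20727676 on the minus strand, and before the downstream one of the starts it lists for Aldh1a1, chr19:20601848-20601967 on the plus strand, written 5′ to 3′ with capitals where the bases are unequal.
Aldh1a1: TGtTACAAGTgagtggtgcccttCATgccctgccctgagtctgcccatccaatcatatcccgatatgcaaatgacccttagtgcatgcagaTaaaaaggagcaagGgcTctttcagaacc
Aldh1a7: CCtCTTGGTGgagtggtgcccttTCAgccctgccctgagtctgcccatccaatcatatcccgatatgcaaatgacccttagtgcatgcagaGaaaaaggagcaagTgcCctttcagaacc
At the same distance from the start 105 of the 120 bases were equal, or 87.5%. Over all 250 bases before these starts 51.6% were equal, and over the window that runs 50 bases further 59%. Bases were compared at equal distance with no gaps, so likeness displaced by an insertion or deletion is not counted in these shares. The far upstream end of the Aldh1a1 window resembles a stretch nearer the start in the Aldh1a7 window. The shares therefore do not show where the likeness ends. The upstream Aldh1a1 start shared 29.2% with Aldh1a7 over the same distance, and the other 53 pairs of windows among these genes shared 15% to 39.2%. Which Aldh1a1 start is used in these livers was not tested.

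RefSeq promoter windows, from 250 bases before a start to 50 after it, were found for 9 of the 10 genes, Aldh2 being the exception, in 11 windows. The core of the antioxidant response element that Nrf2 binds, TGACNNNGC on either strand, occurred in 1 of them, the window of Aldh9a1, against 12.4% of all 32851 windows in the table. The 120 bases before the Aldh9a1 start, at chr1:167349871-167349990 on the plus strand of GRCm38.p6, are shown with the match in capitals.
Aldh9a1: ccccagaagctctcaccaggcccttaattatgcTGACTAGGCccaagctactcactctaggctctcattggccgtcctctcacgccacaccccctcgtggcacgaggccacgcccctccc
A match is a description of letters and not a binding site.

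Values are log2 expression after GCRMA, and a log2 difference is the TrxR1/Gsr-null mean minus the WT mean. Gsr was lower in the TrxR1/Gsr-null livers (2.23-fold at its brighter probe set), and the 1 Txnrd1 probe set above background was 4.31-fold higher there. Whether that probe set lies outside the deleted part is not stated, so it checks no label. WT replicates 3 and 4 stood apart, with interquartile ranges of 3.97 and 3.74, where the 6 remaining arrays had 4.31 to 4.44. No 2 arrays correlated above 0.994.

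Across the family Aldh1a1 rose, Adh4 fell and no other gene passed the test. A gene was called at a limma adjusted p below 0.05. Of 10 genes 9 passed the filter on low values, and of these 1 was called higher, where 4.47% of the 7534 genes tested were, and 1 lower, where 2.15% were. Calls in either direction thus took 2 of 9, beside 6.62% of all tested genes. The groups did not overlap in 3 of the 9, beside 16.6% of all tested genes: higher in Aldh1a1 and Aldh1a7 (10.7% of all genes) and lower in Adh4 (5.84%). Of the 9 genes 4 had an unadjusted p below 0.05, beside 22.9%. The median log2 difference of the 9 was 0.09 and that of all tested genes 0.10. Fitted by probe set, 12 of the 14 passed the filter, and 1 was called higher and 1 lower, beside 4.31% and 1.86% of 12470 probe sets and 6.17% in either direction. No overlap was seen in 4 of the 12, beside 15.7%. Over all genes 337 calls were higher and 162 lower, and after quantile normalization 313 and 271, with the median of all genes at -0.01.

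**Figure D1:**
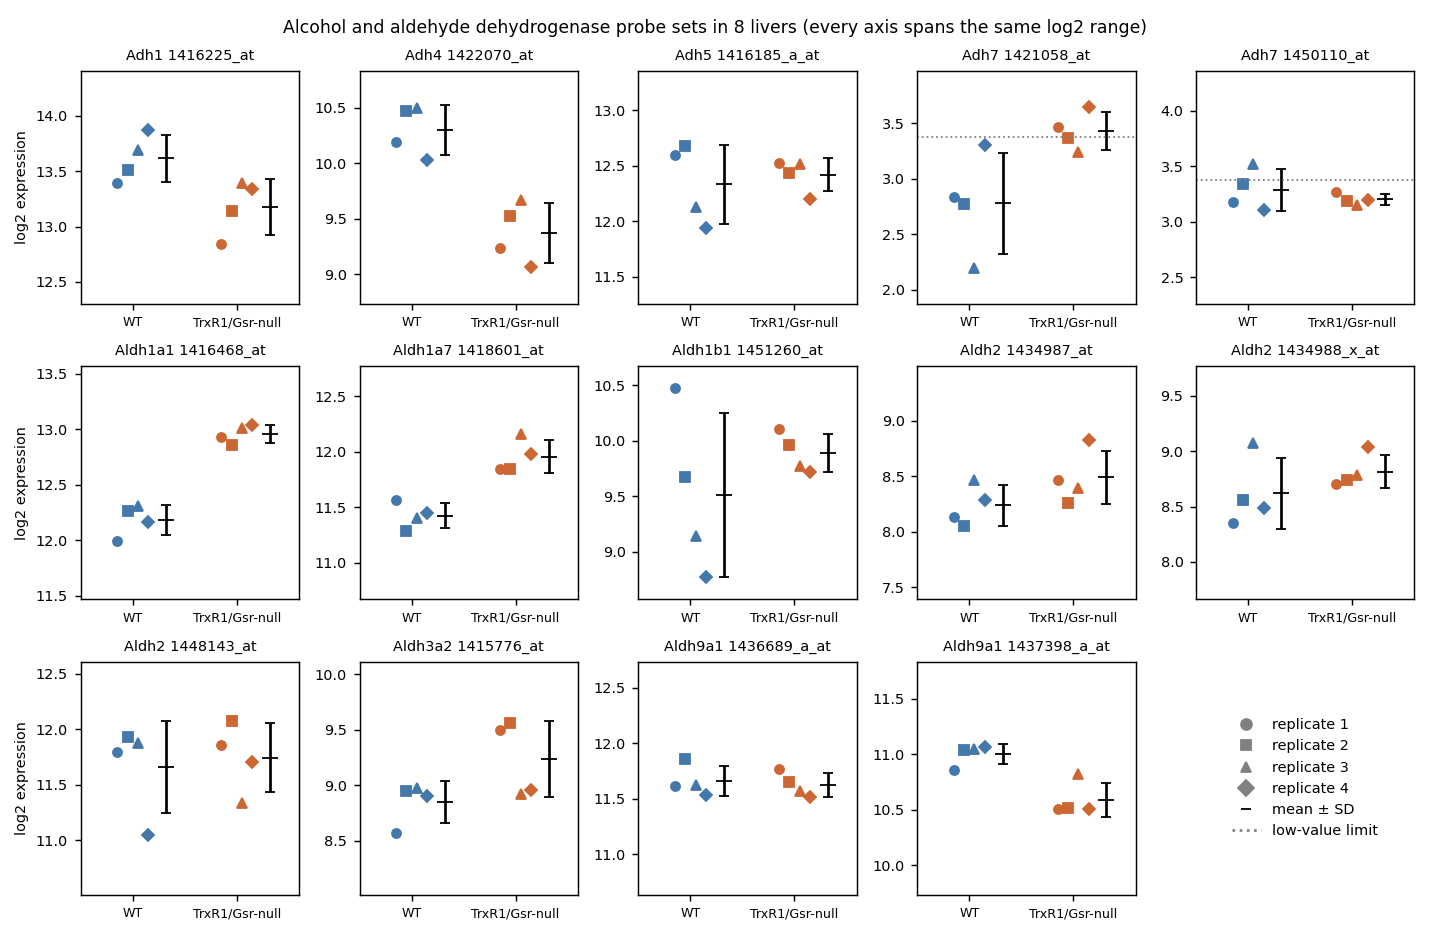
Log2 expression (vertical axis) of the 14 probe sets in the 8 livers, with 1 symbol per replicate number, WT in blue and TrxR1/Gsr-null in orange, bars giving mean and SD of 4 arrays and the dotted line the low-value limit of 3.38. The groups separate in Adh4, Aldh1a1, Aldh1a7 and the Aldh9a1 probe set 1437398_a_at, and overlap in the other 10 panels.

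Adh1, the class I enzyme that carries most hepatic ethanol oxidation, was not called. Its log2 values were 13.39, 13.51, 13.69 and 13.87 in WT replicates 1 to 4 and 12.84, 13.14, 13.39 and 13.34 in the TrxR1/Gsr-null livers. The groups touched at 13.39, where the lowest WT liver and the highest TrxR1/Gsr-null liver met. The difference was -0.44 ± 0.19 (SE, n = 4 per group), with a 95% interval of -0.87 to -0.004 and a limma adjusted p of 0.215. It was -0.27 without WT replicates 3 and 4 (adjusted p = 0.528).

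Adh4, the class II enzyme, which also oxidizes retinol, fell 1.90-fold. Its 4 WT values were 10.19, 10.47, 10.50 and 10.03 and the TrxR1/Gsr-null values 9.24, 9.52, 9.67 and 9.07. Every TrxR1/Gsr-null liver lay below every WT liver, with a gap of 0.36 between 9.67 and 10.03. The means were 10.30 ± 0.22 and 9.37 ± 0.27 (SD, n = 4 each), a difference of -0.92 ± 0.20 SE with a limma adjusted p of 0.0232. The call was lost without WT replicate 2 (adjusted p = 0.0618) or 3 (0.069), without TrxR1/Gsr-null replicate 1 (0.0706), 2 (0.0548) or 4 (0.0687), and without WT replicates 3 and 4 together (0.0564). The difference itself stayed between -1.02 and -0.82 with any 1 array left out and was -0.96 without WT replicates 3 and 4.

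Hepatocyte marker genes had lower means in the same livers. All 7 listed markers, among them Alb and Ttr, had negative differences with a median of -0.32, and none was called. Their summed level (log2 of the sum of linear values) ran from 16.01 to 16.31 in WT and from 15.49 to 16.03 in TrxR1/Gsr-null livers. Its part in the Adh4 and Adh1 results was not tested. In whole liver, fewer cells of a type and less RNA per cell cannot be told apart.

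Adh5, the class III enzyme, uses glutathione to oxidize formaldehyde and to reduce S-nitrosoglutathione, and its values overlapped between the genotypes. The log2 values were 12.59, 12.67, 12.12 and 11.94 in WT and 12.52, 12.44, 12.51 and 12.20 in TrxR1/Gsr-null livers. WT replicates 3 and 4 held the lowest values of all 8 livers. The difference was 0.09 with a 95% interval of -0.38 to 0.55 and a limma adjusted p of 0.855, which leaves room for changes of either direction within it. Without WT replicates 3 and 4 the difference was -0.21 (adjusted p = 0.573).

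Adh7, the class IV enzyme known from stomach and other upper digestive epithelium, did not pass the filter at either of its probe sets. At 1421058_at the values were 2.84, 2.77, 2.20 and 3.30 in WT and 3.46, 3.36, 3.24 and 3.65 in TrxR1/Gsr-null livers, with 2 of the 8 above the limit of 3.38. At 1450110_at they ran from 3.10 to 3.52 in WT and from 3.15 to 3.27 in TrxR1/Gsr-null livers. Fitted with no filter, neither was called (adjusted p = 0.183 and 0.798). Of 8 stomach and gut markers 6 were below the same limit.

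Aldh1a1, the cytosolic retinaldehyde dehydrogenase, rose 1.71-fold. Its WT values were 11.998, 12.26, 12.31 and 12.16 and its TrxR1/Gsr-null values 12.93, 12.86, 13.01 and 13.04. The lowest TrxR1/Gsr-null liver lay 0.55 above the highest WT liver. The means were 12.18 ± 0.14 and 12.96 ± 0.08 (SD, n = 4 each), a difference of 0.78 ± 0.16 SE with a 95% interval of 0.42 to 1.13 and a limma adjusted p of 0.019. The call was lost without TrxR1/Gsr-null replicate 1 (adjusted p = 0.0501), 2 (0.0526) or 4 (0.0562), while the difference stayed between 0.71 and 0.82 with any 1 array left out. It was 0.83 without WT replicates 3 and 4 (adjusted p = 0.0444).

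Aldh1a7, the close relative of Aldh1a1, had a higher mean in the TrxR1/Gsr-null livers and was not called. The values were 11.57, 11.29, 11.40 and 11.45 in WT and 11.85, 11.84, 12.16 and 11.98 in TrxR1/Gsr-null livers, and the groups did not overlap. The difference was 0.53 ± 0.17 SE, or 1.44-fold, with a limma adjusted p of 0.0883. It was called in 4 of 21 other settings: with array weights (0.0359), a trended robust prior (0.0233), the mean of probe sets (0.0495) and replicates 1 and 2 against 3 and 4 as a block (0.0448). The sequences of the probes were not used here, so how far each probe set also reads the other gene was not tested.

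Aldh1a1, Aldh9a1 and Aldh1a7 varied least within the groups. The pooled SD was 0.11 for Aldh1a1, 0.12 for Aldh9a1 at its brighter probe set and 0.13 for Aldh1a7, against a median of 0.35 over all tested genes. Of tested genes 1.95% had a pooled SD no larger than that of Aldh1a1. Aldh1b1 stood at the other end, with a pooled SD of 0.54 that was as large as or larger than that of 81.8% of tested genes.

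Aldh2 and Aldh1b1 are mitochondrial enzymes, Aldh2 being the main acetaldehyde dehydrogenase, and neither was called. At the brightest Aldh2 probe set, 1448143_at, the values were 11.80, 11.93, 11.87 and 11.05 in WT and 11.86, 12.08, 11.34 and 11.71 in TrxR1/Gsr-null livers. WT replicate 4 was low there and the remaining values overlapped. The difference was 0.08 with a 95% interval of -0.47 to 0.63 and a limma adjusted p of 0.886. It was -0.12 without WT replicate 4. The other 2 Aldh2 probe sets differed by 0.25 (adjusted p = 0.476) and 0.20 (adjusted p = 0.615), also with overlap.

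For Aldh1b1 the values were 10.47, 9.67, 9.14 and 8.77 in WT and 10.10, 9.96, 9.78 and 9.72 in TrxR1/Gsr-null livers. The WT livers spanned the TrxR1/Gsr-null range on both sides, with WT replicates 3 and 4 lowest. The difference was 0.37 ± 0.33 SE with a limma adjusted p of 0.536. It was 0.13 without WT replicate 4, 0.69 without WT replicate 1 and -0.18 without WT replicates 3 and 4 (adjusted p = 0.743).

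Aldh3a2, the fatty aldehyde dehydrogenase of the endoplasmic reticulum, which oxidizes long-chain aldehydes from sphingolipid and fatty alcohol breakdown, was not called. WT values were 8.57, 8.95, 8.98 and 8.90, and TrxR1/Gsr-null values 9.50, 9.56, 8.92 and 8.96. TrxR1/Gsr-null replicates 1 and 2 lay above all WT livers and replicates 3 and 4 among them. The difference was 0.38 ± 0.21 SE (adjusted p = 0.32), made up of 0.77 in replicates 1 and 2 and -0.0035 in replicates 3 and 4. The gap between those values, tested in limma as an interaction over all genes, had an unadjusted p of 0.03 and an adjusted p of 0.382. In that test 0 genes passed and 906 had an unadjusted p below 0.05.

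Aldh9a1 oxidizes trimethylaminobutyraldehyde on the way to carnitine, and neither of its 2 probe sets was called. At 1436689_a_at the values ran from 11.54 to 11.86 in WT and from 11.52 to 11.77 in TrxR1/Gsr-null livers, with a difference of -0.03 (limma adjusted p = 0.934). At 1437398_a_at they were 10.86, 11.04, 11.05 and 11.06 in WT and 10.51, 10.52, 10.82 and 10.51 in TrxR1/Gsr-null livers. There the groups did not overlap, and the difference was -0.41 ± 0.17 SE (limma adjusted p = 0.182 over 12470 probe sets). The distance between the probe sets on an array differed between genotypes by -0.38, with an exact two-sided permutation p of 0.0857 and 0.16 adjusted over 7 such comparisons.

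**Figure D2:**
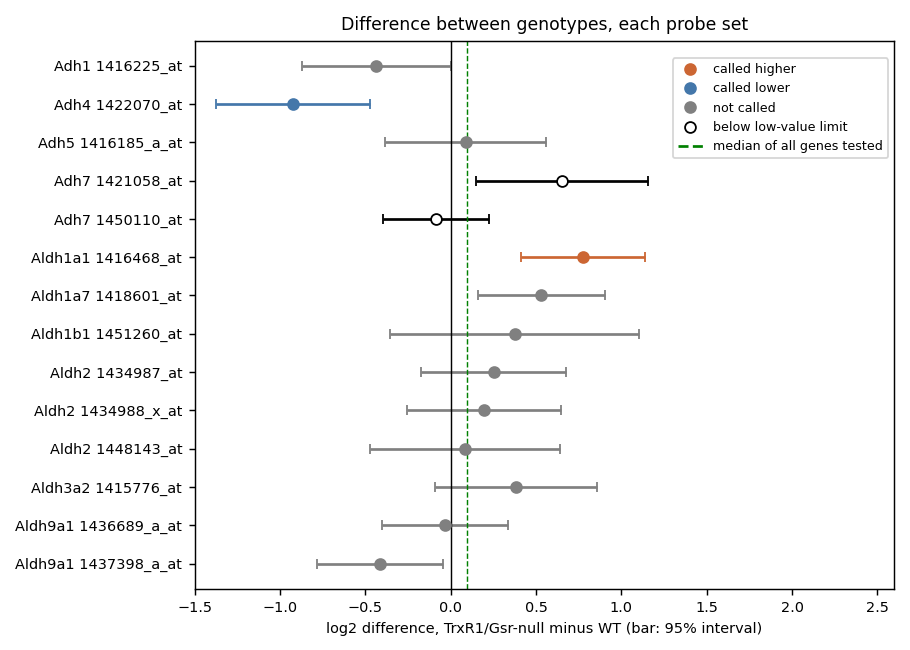
Log2 difference, TrxR1/Gsr-null minus WT (horizontal axis), of each of the 14 probe sets with its 95% interval from limma over all probe sets, 4 arrays per group. Adh4 lies at -0.92 and Aldh1a1 at 0.78, the probe sets called, open symbols mark the Adh7 probe sets below the low-value limit (fitted with no filter), and the dashed line is the median of all tested genes, 0.10.

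Pairs of probe sets were also set against each other on each array. These 7 comparisons were chosen after the values were seen, and the smallest p that 4 against 4 arrays allow is 0.0286. The distance between Adh4 and its chromosomal neighbour Adh5 differed between genotypes by -1.01, without overlap, at that smallest p (exact two-sided permutation, adjusted p = 0.16). Adh4 alone already separated the genotypes, so this comparison adds no independent test of Adh4. The distance between Adh4 and Adh1 differed by -0.49 (exact p = 0.114, adjusted p = 0.16), and that between Aldh1a1 and Aldh1a7 by 0.25 (exact p = 0.114, adjusted p = 0.16). In the other 4 comparisons the Adh7 probe sets differed by 0.74 (exact p = 0.114), the Aldh2 ones by 0.17 and 0.11 (exact p = 0.657 and 0.6), and the Aldh9a1 ones as given above. Paired by replicate number, a choice also made after the data were seen, the Adh4 to Adh1 distance differed by -0.41, -0.58, -0.53 and -0.43 in pairs 1 to 4, all of 1 sign with an SD of 0.08. An exact sign-flip permutation over 4 pairs cannot give a p below 0.125, which this reached. The Aldh1a1 to Aldh1a7 distance differed by 0.65, 0.04, -0.06 and 0.35 in the pairs, with mixed signs (exact p = 0.375). By the tests available neither gene pair was shown to differ in the size of its change.

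**Figure D3:**
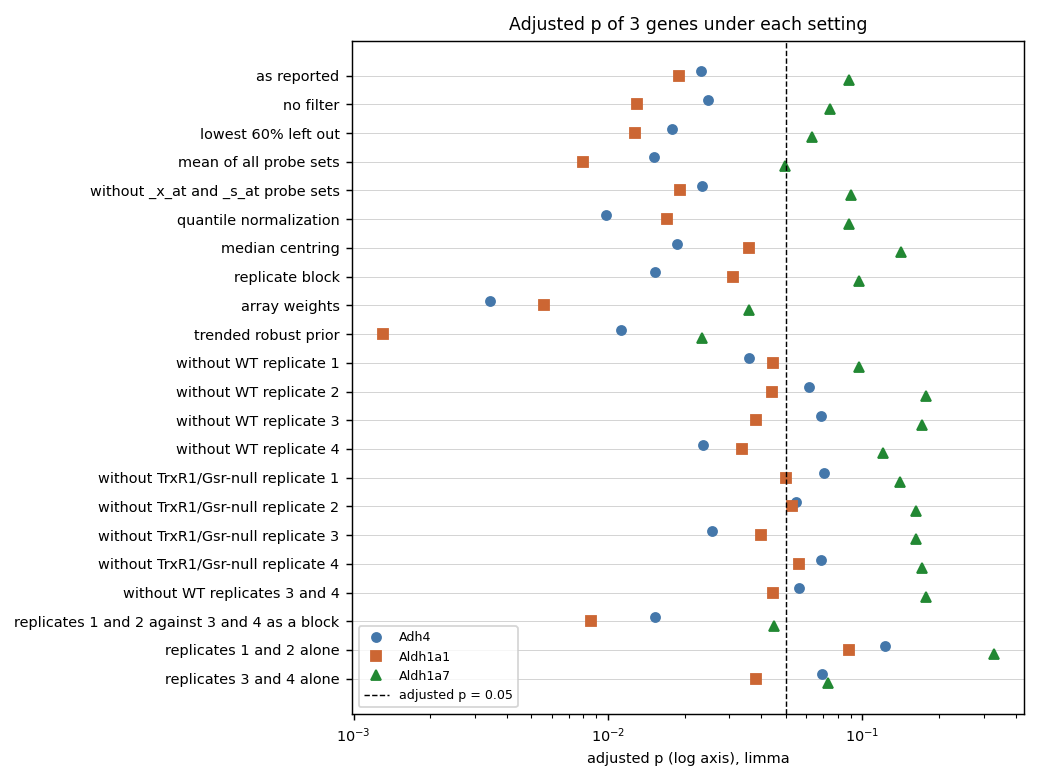
Limma adjusted p on a log axis for Adh4, Aldh1a1 and Aldh1a7 as reported and in the 21 other settings (vertical axis), with a dashed line at 0.05. Adh4 lies below the line in 13 and Aldh1a1 in 17 of the 21, and Aldh1a7 in 4.

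The other dehydrogenases of the families were mostly not called. Of 17 listed genes 12 are on the array and 8 passed the filter, and 1 was called higher and none lower, with a median difference of 0.08. Of all tested genes 4.47% were called higher and 2.15% lower. Aldh3b1, an enzyme for medium- and long-chain aldehydes, was the gene called. Its values were 2.88, 3.46, 3.56 and 3.12 in WT and 4.55, 4.12, 4.38 and 4.83 in TrxR1/Gsr-null livers (limma adjusted p = 0.0101). WT livers averaged 3.25, under the limit of 3.38, so it passed the filter through the TrxR1/Gsr-null livers and its fold has no measured WT level beneath it. It was not tested with the lowest 60% of genes left out.

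In retinoid metabolism, where Adh4, Adh1 and Aldh1a1 also act, 1 gene was called in each direction. Of 27 listed genes 16 passed the filter, with 1 called higher, 1 lower and a median difference of 0.01. Beside these, 4.47% of all tested genes were called higher and 2.15% lower, with a median difference of 0.10. Rdh10, which oxidizes retinol to retinaldehyde ahead of Aldh1a1, rose from 7.21, 7.33, 7.06 and 6.93 in WT to 7.87, 7.76, 8.24 and 7.83 (1.73-fold, limma adjusted p = 0.0304). Rdh5, a retinol dehydrogenase for cis-retinols, fell from 6.90, 6.05, 6.41 and 6.65 to 5.38, 5.51, 5.72 and 5.94 (1.82-fold, adjusted p = 0.0475).

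Both retinoid calls were lost with single libraries left out, while the differences stayed from 0.69 to 0.86 for Rdh10 and from -1.02 to -0.73 for Rdh5. The Rdh10 call was lost without WT replicate 3 or 4 or any one TrxR1/Gsr-null replicate (adjusted p from 0.0609 to 0.0799), and after quantile normalization (0.0519). Without WT replicates 3 and 4 together neither was called (0.122 for Rdh10 and 0.142 for Rdh5). The Rdh5 call was lost without WT replicate 1, 3 or 4 or any one TrxR1/Gsr-null replicate (adjusted p from 0.0612 to 0.132). Named after their values were seen, Retsat, which saturates retinol, had values of 8.43, 9.58, 9.72 and 9.43 in WT and 8.06, 7.43, 8.79 and 7.63 in TrxR1/Gsr-null livers (adjusted p = 0.056, and 0.0372 with the replicate number as a block). Cyp26a1, which degrades retinoic acid, had values of 8.55 and 6.30 in TrxR1/Gsr-null replicates 1 and 2 and of 3.02 to 5.07 in the other 6 livers (adjusted p = 0.274).

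Among 9 genes of ethanol, formaldehyde and acetate handling 6 passed the filter. Of these 1 was called lower and none higher, with a median difference of -0.50. Over all tested genes 2.15% were called lower and 4.47% higher, with a median difference of 0.10. The groups did not overlap in 3 of the 6, beside 16.6% of all tested genes (5.84% lower). Dmgdh, the mitochondrial dimethylglycine dehydrogenase, a source of formaldehyde units, fell from 11.36, 11.50, 11.22 and 11.24 in WT to 10.41, 10.26, 10.38 and 10.06 (2.07-fold, limma adjusted p = 0.00525), and was called in all 21 other settings. Sardh, Pipox, Cyp2e1 and Cat are named after their values were seen. Sardh and Pipox, which oxidize sarcosine, were not called, although their groups did not overlap (differences of -0.73 and -0.62, adjusted p = 0.102 and 0.112), and Pipox was at -0.34 without WT replicates 3 and 4. Cyp2e1, the ethanol-oxidizing cytochrome, and Cat, catalase, which can also oxidize ethanol, overlapped between groups (differences of -0.39 and 0.29). For Cyp2e1 leaving out TrxR1/Gsr-null replicate 1 gave -0.24, and leaving out WT replicates 3 and 4 gave -0.17.

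Of 16 listed enzymes that supply or follow the aldehyde substrates 10 passed the filter and 0 were called by limma, with 1 at an unadjusted p below 0.05 and a median difference of 0.22. Maoa, a monoamine oxidase that yields aldehydes, had a limma adjusted p of 0.172, and Sgpl1, which releases the fatty aldehyde that Aldh3a2 oxidizes, of 0.538. In the 4 lists together 40 genes were tested. Of these 9 had an unadjusted limma p below 0.05, beside 22.9% of all tested genes. Calls were 2 higher and 2 lower, beside 4.47% and 2.15% of all tested genes.

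**Figure D4:**
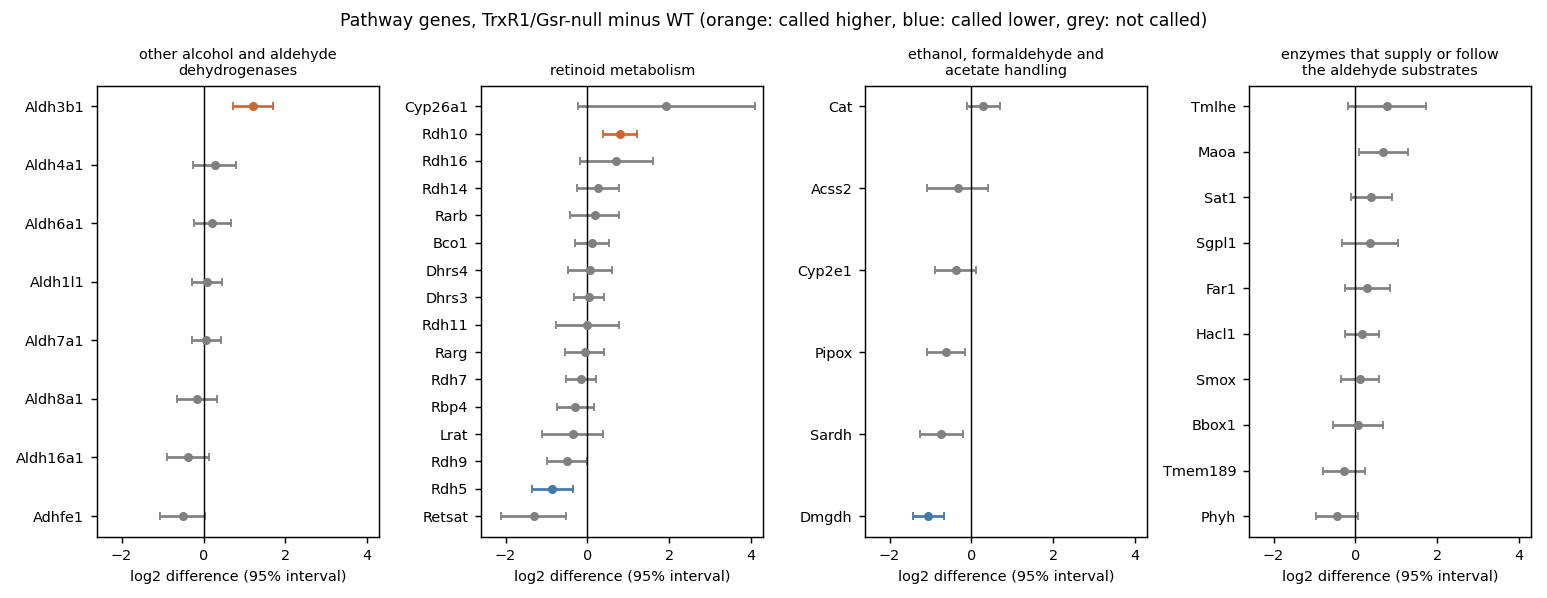
Log2 difference with its 95% interval (horizontal axis, TrxR1/Gsr-null minus WT, 4 arrays per group) for the 40 tested genes of the 4 pathway lists, orange for genes called higher, blue for lower and grey for not called. Aldh3b1 and Rdh10 lie to the right, Rdh5 and Dmgdh to the left, and the wide interval is that of Cyp26a1.

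Calls among markers of the cell types in liver went in both directions. Of 49 markers tested in 13 lists 1 was called higher and 3 lower, beside 4.47% and 2.15% of all tested genes. Hal and Pck1, periportal hepatocyte markers, fell (differences of -1.38 and -1.23), as did the stellate cell marker Ecm1 (-1.18). The other periportal markers tested, Cps1 and Cyp2f2, differed by -0.44 and -0.0016 and were not called. The other stellate markers tested were not called either: Dcn, Lrat and Reln differed by -0.19, -0.36 and -0.13, and Pdgfrb by 0.20. Epcam, a bile duct marker, was called higher with values of 3.36 to 4.11 in TrxR1/Gsr-null livers and 2.51 to 3.31 in WT, all WT livers lying under the low-value limit. Sox9, the other bile duct marker tested, differed by -0.19 (adjusted p = 0.743). The calls of Pck1, Ecm1 and Epcam were lost in turn without 1 of 4, 4 and 6 arrays (adjusted p from 0.0537 to 0.125), although their differences stayed from -1.38 to -1.04, from -1.30 to -0.90 and from 0.80 to 1.11. Without WT replicates 3 and 4 all 3 calls were lost (0.0558, 0.126 and 0.147). With the mean of all its probe sets Pck1 differed by -0.61 and was not called (limma adjusted p = 0.0695). In replicates 3 and 4 alone it differed by -0.76 (limma adjusted p = 0.141). The summed periportal level was 14.31 to 14.58 in WT and 13.73 to 14.29 in TrxR1/Gsr-null livers, so the groups came close without overlap. The pericentral level was 13.56 to 14.34 in WT and 13.74 to 14.13 in TrxR1/Gsr-null livers. These summed levels differed by -0.48 and -0.08, beside -0.36 for the hepatocyte list. The adipocyte list also separated, with 8.74 to 10.06 in WT and 8.03 to 8.69 in TrxR1/Gsr-null livers and 3 of its 4 markers under the limit. Fabp4, its only marker past the filter, differed by -0.93 and was not called (limma adjusted p = 0.106). The adipocyte level thus rests mainly on Fabp4. The summed neutrophil level was 4.99 to 6.39 in WT and 6.29 to 6.86 in TrxR1/Gsr-null livers, with 2 of 4 markers under the limit. Of its other markers, S100a8 differed by 1.30 without overlap (limma adjusted p = 0.0541) and S100a9 by 1.14 (adjusted p = 0.108). The part of these lists in the Adh4, Adh1 and Aldh1a1 results was not tested. Kupffer, endothelial, lymphocyte, neutrophil, erythroid, pancreatic, stomach and gut, and adipocyte lists held no call.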

How the data were processed

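The authors deposited log2 expression values, 1 per probe set and array. The submitters' processing notes name GCRMA. The GCRMA version was not given in the sources used here. Values from 0.53 to 14.6 put them on a log2 scale. GCRMA pulls values near background together. Arrays have no depth, and their number limits precision.

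Of 22690 probe sets, 64 are controls, 691 name several genes and 1555 none. None of the 691 names a gene of this family. Symbols were updated by gene identifier (20364 matched) through a RefSeq table (GRCm38.p6). Each gene took its brightest probe set, _x_at last. Genes in the lowest 40% (up to 3.38) were dropped unless 4 arrays exceeded that limit. The 12470 probe sets that passed it were fitted too. limma 3.58.1 in R 4.3.3 compared the genotypes over all 8 arrays with no covariates (Benjamini-Hochberg, two-sided).

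In simulated data, 1.49%, 40.3% and 95.5% of genes changed by 0.5, 1 and 2 log2 units were called, so a gene not called may still differ. The labels number the replicates but state no pairing between genotypes. Same-numbered replicates correlated in their deviations (0.21 to 0.37) and were taken as paired for an alternative fit with a replicate block. That pairing was thus drawn from these same data, and correlations of differently numbered replicates are not given here.

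The genes, lists, alternatives and the rule for named genes (all 10 genes, up to 4 called genes per list and direction, the first 3 listed where none was called) were chosen with earlier results of these data known. Pathway genes and chromosomal neighbours outside that rule are marked as such. Cell type markers were to be named only where called. The uncalled markers named (Alb, Ttr, Sox9, S100a8, S100a9, Cps1, Cyp2f2, Dcn, Lrat, Reln, Pdgfrb and Fabp4) lie outside it and were named with their values known. Protein sequences were not used here.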

Additional observations from a re-analysis of the deposited data

Results flagged for a closer look

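In 28 sets of 4 values (14 probe sets in each genotype), 3 held a value far from the rest by Dixon's 95% criterion, which chance gives in about 1 of 20 sets. At the Aldh9a1 probe set 1437398_a_at WT replicate 1 was low at 10.86, with the next value at 11.04, and TrxR1/Gsr-null replicate 3 was high at 10.82, with the next at 10.52. At the Aldh2 probe set 1448143_at WT replicate 4 was low at 11.05, with the next value at 11.80.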

How the results depend on the processing

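With the replicate block the counts stayed at 1 gene of the family higher and 1 lower, and of the named genes Retsat and Eif4e gained a call (adjusted p = 0.0372 and 0.0484). Genes called higher, 1 as reported, were 2 with the mean of all probe sets, array weights, a trended robust prior and replicates 1 and 2 against 3 and 4 as a block, 0 in replicates 1 and 2 alone, and 0 to 1 with 1 array left out. Genes called lower, 1 as reported, were 0 without WT replicates 3 and 4, in replicates 1 and 2 alone and in replicates 3 and 4 alone, and 0 to 1 with 1 array left out. Counts of probe sets moved likewise, except that 2 were lower with array weights. Pathway genes called higher, 2 as reported, were 1 with the lowest 60% left out, after quantile normalization and without WT replicates 3 and 4, 0 in replicates 1 and 2 alone, 3 in replicates 3 and 4 alone, and 1 to 2 with 1 array left out. Those called lower, 2 as reported, were 1 with no filter, without WT replicates 3 and 4 and in replicates 1 and 2 alone, 4 with the mean of all probe sets and with array weights, 5 with replicates 1 and 2 against 3 and 4 as a block, 3 with the lowest 60% left out, quantile normalization and the replicate block, and 1 to 2 with 1 array left out. Adh1, Adh4, Aldh1a1 and Aldh1a7 kept their direction in all 21 settings. Uncalled differences turned sign for Adh5 (-0.12 with array weights, -0.21 without WT replicates 3 and 4, -0.15 in replicates 1 and 2 alone, -0.044 to 0.20 with 1 array left out), Aldh1b1 (-0.18 without WT replicates 3 and 4, -0.042 in replicates 1 and 2 alone), Aldh2 (-0.12 without WT replicates 3 and 4, -0.12 to 0.22 with 1 array left out), Aldh3a2 (-0.0035 in replicates 3 and 4 alone), Aldh9a1 (-0.082 to 0.032 with 1 array left out) and Sgpl1 (-0.16 without WT replicates 3 and 4). Quantile normalization moved the median difference of all genes from 0.10 to -0.01 and the calls from 337 higher and 162 lower to 313 and 271. After it the differences of Adh4 and Aldh1a1 were -1.01 and 0.78, beside -0.92 and 0.78 as reported. The cause of these moves was not tested. Genes near background, such as Adh7 and Aldh3b1, are limited by the background correction.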

Other observations

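The genes that lie beside the family on the chromosomes, in RefSeq order, were looked at after the values were seen. On chromosome 3 the order is Mttp, Trmt10a, 4930579F01Rik, Adh7, Adh1, Adh6a, Adh6b, Adh4, Adh5, Metap1, Eif4e. Trmt10a, a transfer RNA methyltransferase, averaged 3.38 ± 0.40 in WT and 4.81 ± 0.24 in TrxR1/Gsr-null livers (SD, n = 4 each). It was called higher (limma adjusted p = 0.00542), and the call was lost in replicates 1 and 2 alone (adjusted p = 0.081). The WT mean lay just under the low-value limit, so Trmt10a, like Aldh3b1, passed the filter through the TrxR1/Gsr-null livers. Eif4e, the cap-binding translation factor, averaged 8.18 and 8.82 without overlap and was not called (adjusted p = 0.0743, and 0.0484 with the replicate block). So in this stretch Adh4 fell, Trmt10a was called higher from a WT mean under the limit, and Mttp, Adh1, Adh5, Metap1 and Eif4e were not called. On chromosome 19 Zfand5, past Aldh1a7 and Tmc1, averaged 9.20 and 9.89 at its brightest probe set, without overlap, and was not called (limma adjusted p = 0.0598). Its difference was 0.69 there and 0.30 with the mean of all its probe sets (limma adjusted p = 0.311). Anxa1, on the other side of Aldh1a1, averaged 6.84 and 6.90.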
